A study of Mus musculus with 6 samples.

Results

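The keratin genes were examined in RNA-seq libraries of basal epithelial cells from the mouse mammary gland. They were taken as every gene row whose symbol begins with Krt followed by a digit, which leaves out the keratin-associated proteins. This gave 52 of the 23337 genes listed. Of these, 24 had a summed count of 60 or more over the 6 libraries and are described below, 21 had a sum of 1 to 59, and 7 had no count.

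The study compared mice with 2 normal copies of the vimentin gene (Vimwt/wt, 2 libraries) with mice homozygous for a vimentin knockout allele (Vimtm1Cba/tm1Cba, 4 libraries). Mice of both groups were aged 15 weeks and came from 129/Sv X C57BL/6 stock, and each library pooled cells from 2 to 3 mice. The labels give a homozygous allele with no tissue-restricted driver, so the genotype is that of the whole animal and not of the basal cells alone. Cells were sorted as live, CD45-negative, CD31-negative, CD24-low and CD49f-high, the gate for the basal, largely myoepithelial layer. The labels speak of 2 experiments without assigning libraries to them. The file names carry a day code, which put wild type 1 with knockouts 1 and 2 (experiment 1) and wild type 2 with knockouts 3 and 4 (experiment 2).

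Keratins are the intermediate filament proteins of epithelia. A type I keratin pairs with a type II keratin to build the filament, and cell types are marked by their pairs: Krt5 with Krt14 in basal cells, Krt8 with Krt18 in simple and luminal epithelium, Krt1 with Krt10 in differentiating epidermis, and Krt6a or Krt6b with Krt16 or Krt17 in wounded or hyperproliferative epithelium. Vimentin, the product of the altered gene, is a type III intermediate filament protein that forms filaments of its own and does not pair with keratins. The mouse genes lie in a type I cluster on chromosome 11 and a type II cluster on chromosome 15. In these files 27 of the 52 were on chromosome 11 and 25 on chromosome 15. The 28 type I genes included Krt18, which sits beside Krt8 at the end of the type II cluster, and there were 23 type II genes and 1 pseudogene.

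Total counts ran from 25347967 to 31200622 per library. Levels are given as CPM, the count of a gene scaled to a fixed total per library by the trimmed-mean method. Genes were ranked by CPM per kilobase of annotated exon, whereas shares and ratios between genes are of counts unless said otherwise. Vim itself was at 215 and 241 CPM in the wild-type libraries and at 92.4, 105, 111 and 111 CPM in knockouts 1 to 4. The groups did not overlap (log2 fold change -1.12, SE 0.12, edgeR adjusted p 0.019), and whether the counted exons lie in the altered stretch was not tested. The myoepithelial and basal markers Acta2 (2861 to 4252 CPM) and Trp63 (602 to 751 CPM) were high in all libraries. The leukocyte marker Ptprc was at most 0.456 CPM, while the summed level of 8 leukocyte markers was 134 and 164 CPM in wild type and 103 to 154 CPM in knockout. The summed level of 8 endothelial markers was 41.6 to 138 CPM in wild type and 18.5 to 28.9 CPM in knockout, and the part of these cells in the keratin values was not tested.

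Several keratins are near copies of each other, and reads that fitted more than 1 place were left out of the counts. The share of 50-base stretches of each gene's transcripts that also occur in another gene was highest for Krt6b (50.1%) and Krt6a (45.7%), each with the other as its main partner. It was 37.6% for Krt16 (main partner Gm11597), 26.9% for Krt8 (a Krt8 pseudogene), 13.9% for Krt14 (Krt16), 8.52% for Krt5 (Krt6a) and 3.99% for Krt17 (Krt14). Of the 25 keratins examined, 12 shared none. The length of 50 bases is a choice, since the read length is not given in the sources used here. The stretches below are 90 bases of coding sequence from the GENCODE M21 transcripts on GRCm38, placed around the longest run that Krt14 and Krt17 share and shown as an example of how close these genes are. Capitals mark bases that differ from the first sequence. The stretches cover coding bases 1204 to 1293 of Krt14, 1180 to 1269 of Krt16 and 1093 to 1182 of Krt17.
Krt14: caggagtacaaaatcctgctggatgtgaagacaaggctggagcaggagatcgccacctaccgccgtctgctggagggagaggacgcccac
Krt16: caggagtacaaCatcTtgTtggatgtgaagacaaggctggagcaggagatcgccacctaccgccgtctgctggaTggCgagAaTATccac
Krt17: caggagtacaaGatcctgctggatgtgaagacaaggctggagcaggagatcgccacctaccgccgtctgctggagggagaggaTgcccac

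Within this window Krt16 differed from Krt14 at 9 bases and Krt17 at 2 bases. The longest run shared without a mismatch was 134 bases between Krt14 and Krt16 and 71 bases between Krt14 and Krt17. A read lying inside such a run cannot be placed on 1 gene by its sequence.

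Keratin transcripts were among the most abundant in the wild-type cells. Krt17 ranked 1st and Krt14 2nd of all genes by CPM per kilobase, at 3337 ± 225 and 2551 ± 280 (SD, n = 2). Krt5 ranked 16th at 1058 ± 26.4, Krt18 81st at 414 ± 33.6 and Krt8 99th at 384 ± 39.0. Krt15 (rank 257), Krt19 (531), Krt16 (602) and Krt23 (669) were the next 4. Krt17 and Krt14 differed by more than the spread of either, whereas Krt18 and Krt8 did not, nor did Krt15, Krt19, Krt16 and Krt23 as neighbours in the order. Krt7 (1694) and Krt42 (2294) followed, then Krt6a (4079), Krt80 (5623), Krt4 (8109) and Krt9 (9730). The remaining described members ranked 11155 or lower, at 0.968 CPM per kilobase or less in wild type.

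**Figure D1:**
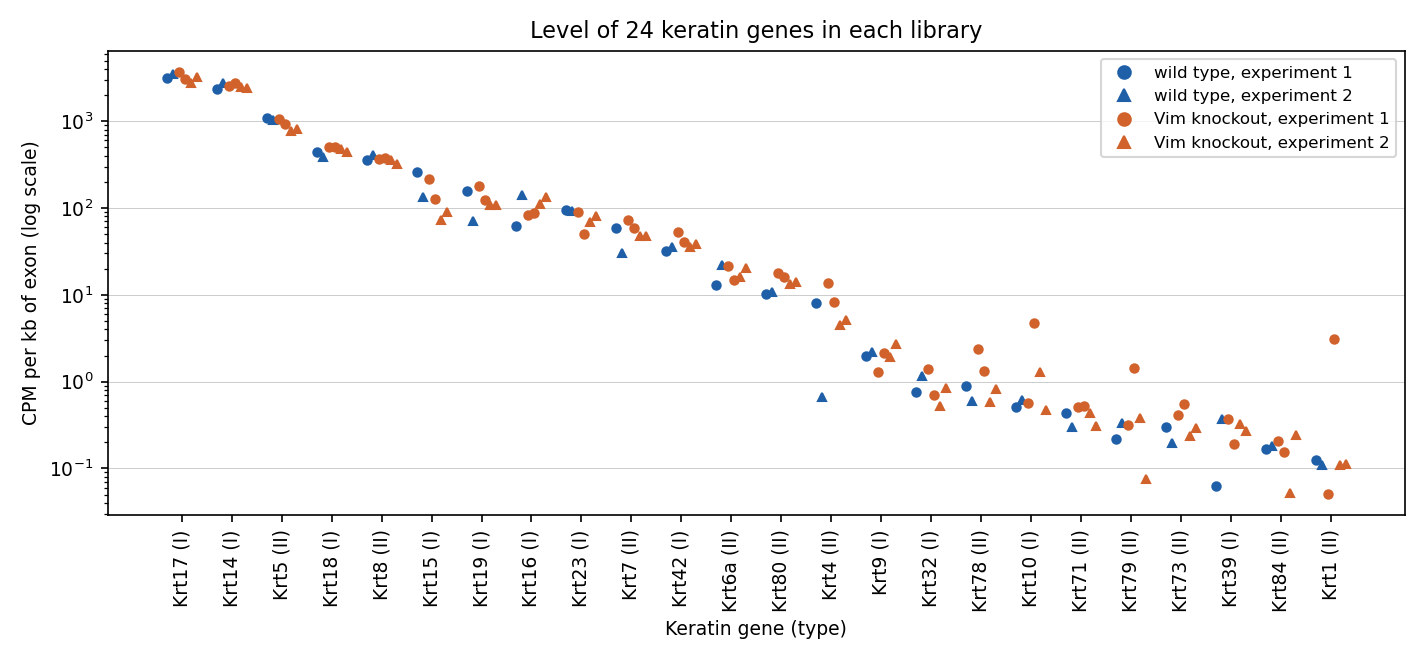
Level of the 24 described keratin genes in CPM per kilobase of exon on a log scale, each point being 1 library (blue wild type, orange knockout, circles experiment 1, triangles experiment 2), with the keratin type in brackets. Krt17, Krt14 and Krt5 stand at the top in all 6 libraries, and Krt4, Krt10, Krt79 and Krt1 show the libraries that lie far from the rest.

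The keratins with 1 to 59 counts over all libraries were Krt13 (56), Krt6b (50), Krt20 (47), Krt31 (44), Krt75 (38), Krt77 (37), Krt25 (24), Krt28 (22), Krt36 (16) and Krt81 (16). Lower still were Krt83 (12), Krt33a (12), Krt12 (11), Krt74 (9), Krt76 (9), Krt85 (6), Krt2 (4), Krt222 (2), Krt27 (1), Krt35 (1) and Krt86 (1). No count was seen for Krt24, Krt26, Krt33b, Krt34, Krt40, Krt82 and Krt72-ps. A sum of 0 over 170784604 counts allows a level of up to 0.0176 CPM, taken as 3 counts and covering counting error only. These genes belong mainly to the hair shaft and hair follicle sheath, the cornea, the palate and the differentiated epidermis.

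The keratin share of all counts was 1.42% and 1.36% in wild type and 1.53%, 1.34%, 1.19% and 1.25% in knockouts 1 to 4. The groups overlapped, with means of 1.39% ± 0.042 and 1.33% ± 0.146. An exact permutation test over the 15 splits gave a two-sided p of 0.667 (adjusted over the 2 measures tested, 0.667). Krt17, Krt14 and Krt5 together held 82.3% to 84.8% of keratin counts in every library. The ratio of type I to type II counts was 3.25 and 3.55 in wild type and 3.59, 3.62, 3.85 and 4.06 in knockout. All knockout libraries lay above both wild-type libraries, by little in knockout 1, and the exact p was 0.133 (adjusted 0.267), where the smallest possible p is 0.0667. That test did not use the experiment, and within each experiment both knockout libraries were above the wild-type library.

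Ratios between partner keratins were computed within each library, where scaling between libraries has no part. The Krt8 to Krt18 ratio of counts was 1.05 and 1.36 in wild type and 0.959, 0.953, 0.959 and 0.943 in knockouts 1 to 4. Divided by exon length it was 0.814 and 1.05 in wild type and 0.744, 0.739, 0.744 and 0.732 in knockout. Per length Krt8 was thus above Krt18 in wild type 2 alone. The 4 knockout libraries lay close together and below both wild-type libraries. The Krt14 to Krt5 ratio was 1.66 and 2.00 in wild type and 1.85, 2.23, 2.42 and 2.26 in knockout, so the groups overlapped through knockout 1. These ratios were not tested, and with 2 wild-type libraries the spread of the wild-type ratio is poorly known.

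**Figure D2:**
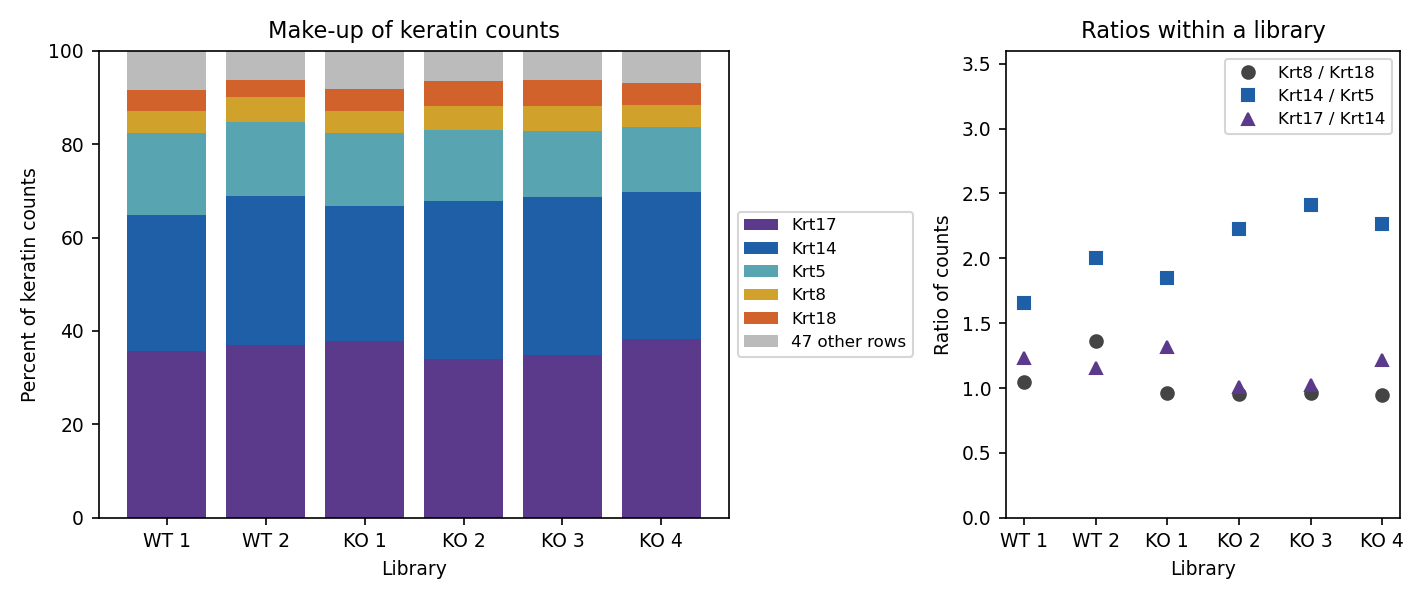
Left, the percent of keratin counts held by Krt17, Krt14, Krt5, Krt8, Krt18 and the 47 other rows in each library (WT wild type, KO knockout). Right, the ratio of counts of Krt8 to Krt18, Krt14 to Krt5 and Krt17 to Krt14 in the same libraries, where the Krt8 to Krt18 ratio is 0.943 to 0.959 in knockout and 1.05 and 1.36 in wild type.

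Over all libraries, no keratin was called as different between knockout and wild type except in DESeq2 with the experiment as a block. Of 28 keratins that passed the filter on low counts (23 of the 24 described and 5 below them), edgeR's quasi-likelihood test called 0 at an adjusted p under 0.05, against 0.079% of the 13925 genes tested. DESeq2 called 0 (1.92% of genes, with no adjusted p for 4 keratins), limma-voom called 0 (0.0718%), and edgeR with experiment as a replicate block called 0 (1.56%). DESeq2 with that block called 2 of 28, Krt15 lower and Krt80 higher, against 4.95% of all genes. At an unadjusted p under 0.05, edgeR had 2 of 28 keratins (7.14%), Krt80 and Krt77, against 8.57% of all genes. Krt77 passed the filter on low counts only through knockout libraries, where it is high, so its p is no evidence of a difference. The smallest adjusted p was 0.343, for Krt80. With the block, edgeR called 3 of 26 keratins (Krt15, Krt23 and Krt80) when knockout 1 was left out, against 6.84% of all genes, and 1 of 25 (Krt7) when knockout 2 was left out, against 1.79%. Of the 23, 15 had log2 fold changes above 0 and 8 below, with a median of 0.21 against -0.01 for all genes. In 13 of the 23 the 95% interval lay within a 2-fold change either way. The intervals of the other members, which were low or variable, reached beyond 2-fold, so a larger change was not excluded.

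**Figure D3:**
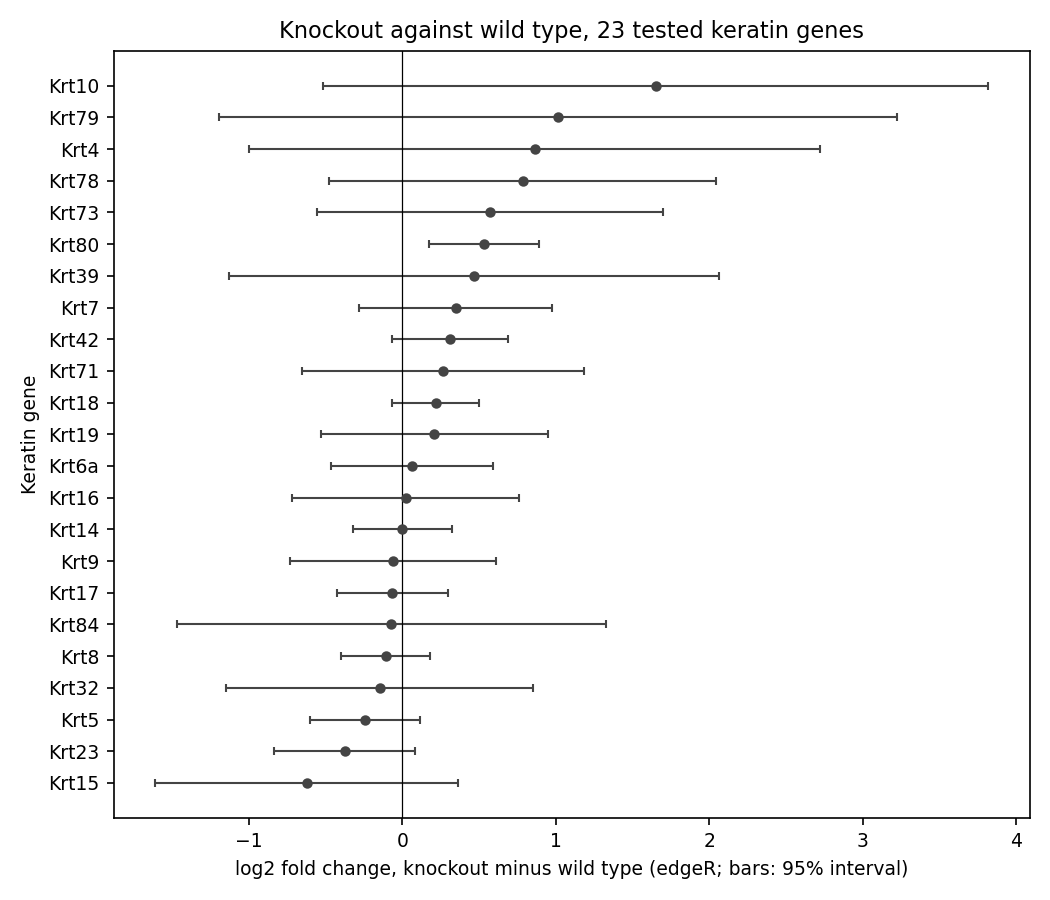
log2 fold change of the 23 tested keratins with 60 or more counts, knockout against wild type, from edgeR; points are estimates and bars 95% intervals. The intervals are narrow for Krt14, Krt17, Krt8 and Krt18 and wide for Krt10, Krt79 and Krt4, and that of Krt80 alone leaves out 0 before adjustment over all genes.

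All 4 knockout libraries lay on one side of both wild-type libraries for 4 of the 24 described keratins (16.7%), against 16.2% of all genes tested, so the share was near that of all genes. Krt18, Krt42 and Krt80 were the higher ones (7.6% of all genes) and Krt23 the lower one (8.57%).

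The basal pair and Krt15, a keratin of the basal layer and of hair follicle stem cells, come first by role. Krt14 (chromosome 11, 100203162 to 100207510 on mm10) was at 3905 and 4563 CPM in wild type and 4265, 4551, 4109 and 4020 CPM in knockout. All knockout values lay between the wild-type values, and the log2 fold change was 0.00 (SE 0.14, 95% interval -0.32 to 0.32). Its partner Krt5 (chromosome 15, 101707070 to 101712891) was at 2358 and 2277 CPM in wild type and 2307, 2043, 1702 and 1776 CPM in knockout. Knockouts 2 to 4 were below both wild-type libraries and knockout 1 was between them, at a log2 fold change of -0.24 (SE 0.16, -0.60 to 0.12; edgeR adjusted p 0.785). Krt15 was at 445 and 228 CPM in wild type and 374, 220, 124 and 155 CPM in knockout. Its knockout libraries were below the wild-type library of their own experiment in all 4 cases, while the groups overlapped when experiments were pooled. The log2 fold change of Krt15 was -0.62 (SE 0.43, adjusted p 0.81) without and -0.65 (SE 0.20, adjusted p 0.192) with the experiment as a block in edgeR. DESeq2 with the block called it lower (adjusted p 0.0283), alongside 4.95% of all genes.

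The wound keratins Krt17, Krt16 and Krt6a came at very different levels. Krt17 (chromosome 11, 100256217 to 100260989), which is also made by myoepithelial cells, was at 4802 and 5283 CPM in wild type and 5603, 4589, 4210 and 4879 CPM in knockout. The wild-type libraries lay inside the knockout range, and the log2 fold change was -0.07 (SE 0.16, -0.43 to 0.30). Krt16 was at 97.6 and 224 CPM in wild type and 129, 137, 174 and 212 CPM in knockout. The wild-type pair spanned the whole knockout range (log2 fold change 0.02, SE 0.32). Krt6a was at 29.4 to 49.5 CPM over the 6 libraries, with a log2 fold change of 0.06 (SE 0.23). Krt6b had 3 to 11 counts per library.

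Among the simple epithelial keratins, Krt8 was at 643 and 742 CPM in wild type and 670, 678, 639 and 581 CPM in knockout. Its groups overlapped, with a log2 fold change of -0.11 (95% interval -0.40 to 0.18). Krt18 was at 612 and 546 CPM in wild type and 699, 712, 666 and 616 CPM in knockout. All knockout libraries were above both wild-type libraries, knockout 4 by the least, and the log2 fold change was 0.22 (SE 0.12, -0.07 to 0.50; edgeR adjusted p 0.736). Krt23, a type I keratin of simple epithelia, was at 147 and 142 CPM in wild type and 137, 78.1, 107 and 123 CPM in knockout. Its knockout libraries were all below wild type, knockout 2 the furthest, at a fold change on the log2 scale of -0.38 (SE 0.20, adjusted p 0.694). Krt7, the type II keratin of ducts, was at 92.9 and 48.3 CPM in wild type and 115, 93.7, 75.6 and 75.3 CPM in knockout. Krt19, a small type I keratin of simple epithelium, was at 214 and 97.7 CPM in wild type and 249, 172, 149 and 150 CPM in knockout. Both overlapped between genotypes when experiments were pooled, with log2 fold changes of 0.35 (SE 0.27) and 0.21 (SE 0.32). In both experiments taken separately, every knockout value of Krt7 exceeded that of wild type, by little in knockout 2. Krt19 did the same except in knockout 2. With the experiment as a block, the log2 fold change of Krt7 was 0.40 (SE 0.13, edgeR adjusted p 0.198). DESeq2 with the block did not call Krt7 (adjusted p 0.105). Krt20, of gut and urothelium, had 4 to 12 counts per library.

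The keratin with the smallest p was Krt80, a type II keratin of many epithelia (chromosome 15, 101349571 to 101370125). It was at 18.3 and 19.3 CPM in wild type and 31.8, 28.4, 23.9 and 24.6 CPM in knockout. Every knockout library was above both wild-type libraries, and the knockouts of experiment 1 were above those of experiment 2. The log2 fold change was 0.53 (SE 0.16, 0.18 to 0.89), which is 1.45-fold (1.13 to 1.85), with an edgeR p of 0.00853 before and 0.343 after adjustment. Within experiments the log2 ratio was 0.72 in the first and 0.33 in the second. With the experiment as a block the edgeR adjusted p was 0.0929, and DESeq2 with the block called it higher (adjusted p 0.0204), alongside 4.95% of all genes. The type I gene Krt42, next to Krt17 on chromosome 11, was at 49.6 and 54.5 CPM in wild type and 81.1, 62.7, 54.8 and 59.6 CPM in knockout. Its groups did not overlap but nearly met at wild type 2 and knockout 3 (log2 fold change 0.31, SE 0.16, adjusted p 0.692).

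The other keratins of stratified and suprabasal epithelium were low and uneven between libraries. With Krt80, 13 such genes were listed and 8 were tested. Krt77 passed the filter on low counts through the knockout libraries alone. Krt4, a type II keratin of non-cornified stratified epithelium, was at 17.0 and 1.42 CPM in wild type and 29.5, 17.7, 9.47 and 10.9 CPM in knockout. Wild type 2 was 20.7-fold below knockout 1, and the log2 fold change was 0.86 (SE 0.81). Without wild type 2 it was -0.0072. Krt78, of the same tissues, was at 1.98 to 8.21 CPM and Krt9, of palm and sole epidermis, at 3.30 to 6.97 CPM. Their log2 fold changes were 0.78 (SE 0.55) and -0.06 (SE 0.29).

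The 5 described keratins of the hair follicle sheath and hair shaft were near the lower limit of the test. Krt71 and Krt73, of the inner root sheath, were at 0.654 to 1.15 CPM and 0.423 to 1.19 CPM. Krt32, Krt39 and Krt84, of the hair cuticle and related appendages, were at 0.873 to 2.33, 0.0912 to 0.539 and 0.134 to 0.630 CPM. Log2 fold changes were 0.26 (SE 0.40), 0.57 (SE 0.49), -0.15 (SE 0.44), 0.47 (SE 0.70) and -0.07 (SE 0.61) in the order Krt71, Krt73, Krt32, Krt39, Krt84. None of these was larger than the spread between libraries.

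Krt1 and Krt10, the pair of differentiating epidermis, were high in 1 library. Krt1 was at 0.304 and 0.269 CPM in wild type and 0.126, 7.67, 0.269 and 0.275 CPM in knockouts 1 to 4. Krt10 was at 1.06 and 1.27 CPM in wild type and 1.19, 9.84, 2.72 and 0.984 CPM in knockout. Knockout 2 held 194 of the 230 Krt1 counts and 249 of the 461 Krt10 counts, and in both genes it was the only library far above the rest. Krt1 was not tested because too few libraries passed the filter on low counts. Krt10 had a log2 fold change of 1.65 (SE 0.94, -0.52 to 3.82; edgeR adjusted p 0.737), which was 0.51 without knockout 2.

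The same library was highest for Krt79, of the sebaceous duct and upper hair follicle, at 3.04 CPM against 0.157 to 0.806 CPM in the others. Without it the log2 fold change of Krt79 went from 1.02 to -0.039. Krt77, an epidermal type II keratin, was counted 1 time in wild type 1, 0 times in wild type 2 and 2, 19, 14 and 1 times in knockouts 1 to 4. Knockouts 2 and 3 held nearly all of them, and the other knockout libraries were near wild type. All 4 counts of Krt2 were in knockout 2. The epidermal gene Krtdap (2.06 CPM against 0.0787 to 0.504) and the desmosomal gene Dsc3 (8.30 CPM against 1.34 to 3.85) were also highest there. Loricrin (Lor, 1.15 CPM) and involucrin (Ivl, 0.0395 CPM), of the cornified envelope, were not. Of 13 epidermal and hair follicle markers with counts, 2 were highest in knockout 2. Of 23 keratin linker and anchor genes, which include Dsc3, 3 were highest there. Over all genes with counts, 3293 of 17886 were. The summed level of these 13 markers was 43.8 CPM in knockout 2, 27.9 to 43.8 CPM over all knockouts and 39.3 and 63.8 CPM in wild type, and none was at 0 in all libraries. Whether skin cells contributed to that library was not tested.

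**Figure D4:**
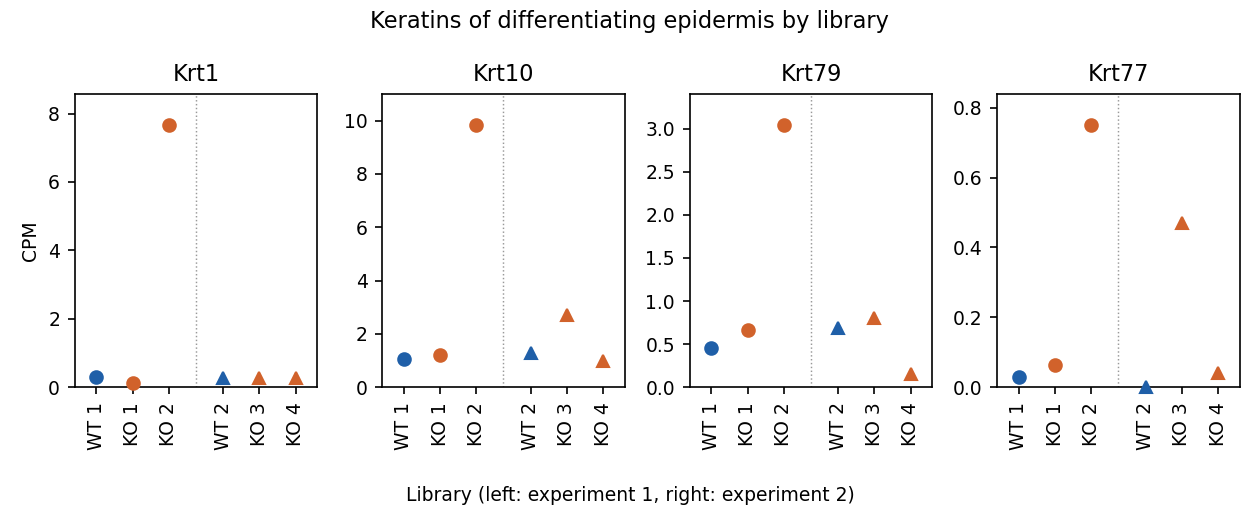
CPM of Krt1, Krt10, Krt79 and Krt77 in each library, ordered by experiment (blue wild type, orange knockout, circles experiment 1, triangles experiment 2). Knockout 2 is the highest library in all 4 panels, at 7.67 CPM for Krt1 and 9.84 CPM for Krt10, and Krt77 has knockout 3 as its next highest library.

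More keratins were called between the 2 experiments than between genotypes. In the edgeR fit with both terms, 4 of 28 tested keratins (14.3%) were called between experiments, against 6.43% of all genes. Krt7, Krt15 and Krt19 were lower (3.04% of all genes) and Krt16 higher (3.39%) in experiment 2. Krt15 was at 220 to 445 CPM in experiment 1 and 124 to 228 CPM in experiment 2, a log2 difference of -1.05 (SE 0.19, edgeR adjusted p 0.0228). Krt19 was at 172 to 249 and 97.7 to 150 CPM (-0.71, SE 0.17, adjusted p 0.0494), and Krt7 at 92.9 to 115 and 48.3 to 75.6 CPM (-0.63, SE 0.12, adjusted p 0.0184). Krt16 was at 97.6 to 137 and 174 to 224 CPM (0.76, SE 0.15, adjusted p 0.0193). The experiments did not overlap in Krt19, Krt7 and Krt16, and overlapped in Krt15 through wild type 2 and knockout 2.

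Krt4 was at 17.0 to 29.5 CPM in experiment 1 and 1.42 to 10.9 CPM in experiment 2, and Krt78 at 3.04 to 8.21 and 1.98 to 2.79 CPM. Both were past the threshold in DESeq2 (adjusted p 0.0288 and 0.0141; 11.0% of all genes were) and not in edgeR (0.111 and 0.0537). In all, the experiments did not overlap for 7 of the 24 described keratins (29.2%), against 26.1% of all genes. Leaving out wild type 1, wild type 2 or knockout 4 left 0 edgeR calls among keratins (0.269%, 0.292% and 0.865% of all genes were called), and leaving out knockout 3 left 2 (3.51%), so the count rests on each of these libraries. The genotype effect was not shown to differ between experiments in any keratin (smallest adjusted p of the interaction in edgeR 0.998; 2 keratins, Krt4 and Krt16, with an unadjusted p under 0.05).

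Luminal markers moved with these values in part. The summed level of 10 markers of hormone-sensing luminal cells was 199 to 313 CPM in experiment 1 and 134 to 178 CPM in experiment 2. All 10 had log2 differences below 0, as did 7326 of the 13925 genes tested. Prlr, Greb1 and Pgr, receptors and a target of hormone signalling, were called lower, against 3.04% of all genes. The summed level of 9 pan-luminal markers was 1234 to 1313 CPM and 1364 to 1473 CPM, the opposite order. For 11 luminal progenitor markers it was 1376 to 2344 CPM and 1625 to 1904 CPM. None of these markers was at 0 in all libraries. In bulk samples, fewer cells of a type and less RNA per cell cannot be told apart, and the part of luminal cells in the keratin differences was not tested.

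**Figure D5:**
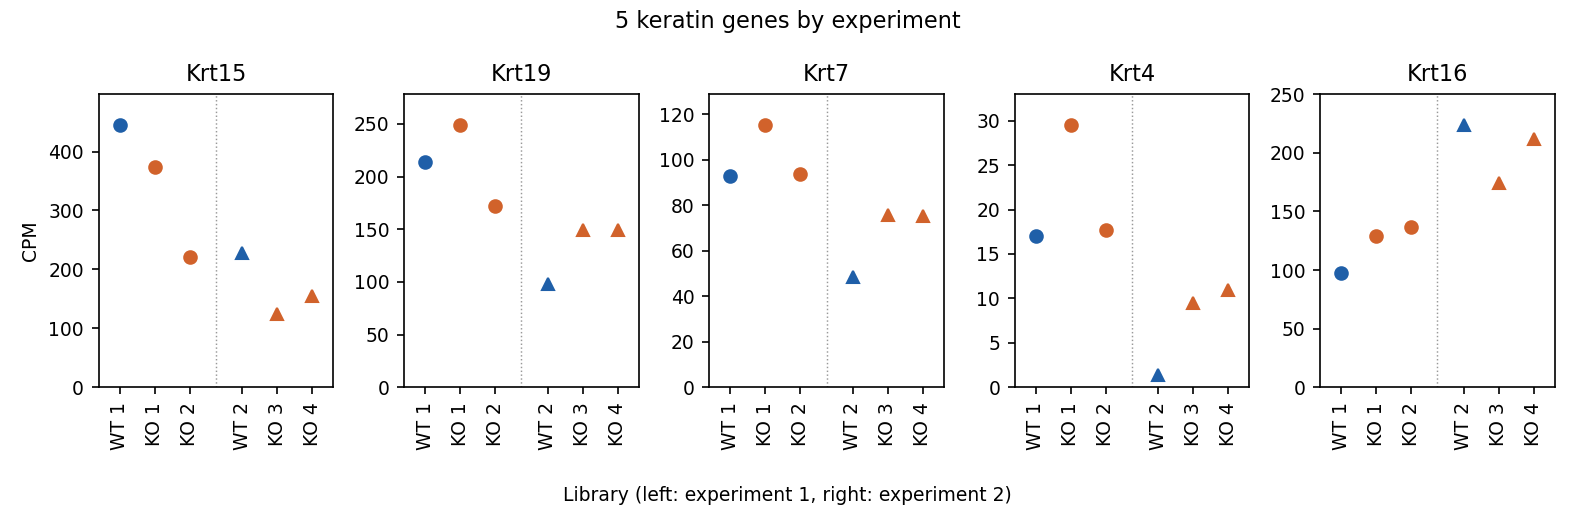
CPM of Krt15, Krt19, Krt7, Krt4 and Krt16 by library, experiment 1 left and experiment 2 right of the dotted line (blue wild type, orange knockout). Krt19, Krt7 and Krt4 are lower in all libraries of experiment 2 and Krt16 is higher, at 174 to 224 CPM against 97.6 to 137 CPM.

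Proteins that tie keratin filaments to desmosomes and hemidesmosomes were set beside the keratins. Of 23 linker and anchor genes tested, edgeR, DESeq2 and limma-voom called 0 (0.079%, 1.92% and 0.0718% of all genes), and edgeR had 5 at an unadjusted p under 0.05 (8.57% of all genes). There were 9 above 0 and 14 below, with a median log2 fold change of -0.09 against -0.01 for all genes. The desmosomal cadherin Dsg2 was at 209 and 223 CPM in wild type and 175, 144, 171 and 154 CPM in knockout. Its knockout libraries were all below wild type (log2 fold change -0.42, SE 0.12, edgeR adjusted p 0.314). Desmoplakin (Dsp), which anchors keratins at desmosomes, was at 1450 and 1242 CPM in wild type and 1214, 1060, 920 and 891 CPM in knockout, and also did not overlap (-0.40, adjusted p 0.541). With the experiment as a block, edgeR called 0 of the 23 (1.56% of all genes) and DESeq2 called 4 (4.95%), with Dsg2, Dsp and the hemidesmosomal integrin Itgb4 lower and the plakophilin Pkp1 higher.

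Of 13 genes for proteins that bind or organise keratins, the small heat shock protein gene Hspb1 was the 1 that changed with the block in edgeR (1.56% of all genes). It was at 68.7 and 105 CPM in wild type and 122, 149, 155 and 155 CPM in knockout, with no overlap. Its log2 fold change was 0.76 (SE 0.13, edgeR adjusted p 0.0211) with the block and 0.74 (SE 0.19, adjusted p 0.269) without, and DESeq2 called it in both fits. Of 18 transcription factor genes that act on keratin genes, edgeR called 0 without the block, with 6 at an unadjusted p under 0.05 (8.57% of all genes), and DESeq2 and limma-voom called 0. With the block edgeR called 1, Klf5, lower (1.56% of all genes were called). Klf5, an epithelial zinc finger factor, was at 112 and 93.2 CPM in wild type and 92.1, 75.8, 60.2 and 62.5 CPM in knockout, and its log2 fold change with the block was -0.51 (SE 0.11, adjusted p 0.0487). DESeq2 with the block called 3 (4.95% of all genes), with Klf5 lower and Klf4 and Cebpb higher. Trp63, the p63 gene that drives the basal keratins Krt5 and Krt14, had a log2 fold change of -0.08 (SE 0.13).

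Promoters are shown for a basal gene, an epidermal gene and the luminal pair, whose levels here ran from 1058 to 0.558 CPM per kilobase in wild type. RefSeq start sites on GRCm38.p6 were given for 16 of the 24 described keratins, and for 15 of these the start lay within 100 bases of that in the files (for Krt14 it was 1480 bases away, and its sequence is not shown). Each sequence is the 120 bases before the start on the gene's own strand. Capitals mark ATAAA, searched on that strand as a form of the TATA box core, and GCCNNNGGC, the AP-2 motif, searched on both strands.
Krt5 (chr15:101712906-101713025, minus): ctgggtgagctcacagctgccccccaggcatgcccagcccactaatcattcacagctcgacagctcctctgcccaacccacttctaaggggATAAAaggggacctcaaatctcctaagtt
Krt10 (chr11:99389365-99389484, minus): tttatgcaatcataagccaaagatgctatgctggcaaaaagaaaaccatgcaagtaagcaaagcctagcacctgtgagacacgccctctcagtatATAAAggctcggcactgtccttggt
Krt8 (chr15:102004343-102004462, minus): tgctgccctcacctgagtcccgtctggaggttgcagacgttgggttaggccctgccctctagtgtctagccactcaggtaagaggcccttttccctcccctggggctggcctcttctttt
Krt18 (chr15:102028096-102028215, plus): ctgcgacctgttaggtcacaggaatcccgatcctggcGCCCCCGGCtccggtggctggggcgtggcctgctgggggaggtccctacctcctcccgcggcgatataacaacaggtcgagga

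ATAAA began 29 bases before the start in Krt5 and 25 bases before it in Krt10, and was in neither Krt8 nor Krt18, whose starts lie 23874 bases apart on opposite strands. It lay wholly within 20 to 40 bases before the start in 8 of the 16 keratins, against 3.78% of 32817 RefSeq windows of the same length. This motif was chosen after the sequences were seen. Forms of the TATA box without ATAAA were not searched, so a lack of ATAAA is not a lack of a TATA box. The Krt18 sequence shown holds tataa near its start, as do those of Krt9 and Krt39, which are not shown. Anywhere in the 120 bases, ATAAA was in 10 of the 16 (12.6% of all windows) and TATAAA, which contains it, in 4 (4.19%). GCCNNNGGC was in 3 (7.98%), GGGCGG, the Sp1 box, in 1 (26.5%) and TGANTCA, the AP-1 motif, in 0 (3.41%), each on both strands. These are matches of letters in the reference sequence, and no binding was measured.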

How the data were processed

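The members and gene lists were chosen with earlier results of these data known. Counts per gene were made by the authors with featureCounts (Subread 1.5.1) over mm10 exons with strand option 2, without multi-mapped or multiply overlapping reads, per the file headers. Base calling and alignment used bcl2fastq 2.17 and STAR 2.5.2b, per the submitters' processing notes. All other steps were computed here from these deposited counts. Knockout was compared with wild type over all 6 libraries by edgeR 4.0.16 (trimmed-mean scaling, filterByExpr, robust quasi-likelihood test, Benjamini-Hochberg adjustment over all genes tested, threshold 0.05, R 4.3.3). This was tested on simulated data. DESeq2 1.42.0, limma-voom (limma 3.58.1), other scalings and filters, and each library left out were the alternatives. Libraries of the same experiment deviated together from their genotype means in all 4 pairs of a wild-type with a knockout library (r = 0.251 to 0.414). The deviations of the wild-type libraries mirror each other, as there are only 2, so these values are not independent. Experiment, read from the day code in the file names, served as the replicate block. Nothing in the labels says that libraries are independent beyond separate pools, so p-values measure the spread between these libraries. SE is the absolute log2 fold change over the root of F. Full values were given for the 10 highest keratins by level per length, and for Krt1, Krt4, Krt10, Krt42 and Krt80 after their values were seen; other described members are given by range. Protein sequences were not used here, and sequence of some members is not reported here.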

Additional observations from a re-analysis of the deposited data

Results flagged for a closer look

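Krt1 in knockout 2 stood apart from the other knockout libraries, at 7.67 CPM against 0.126, 0.269 and 0.275 CPM in knockouts 1, 3 and 4 (Dixon's test at its 95% critical value for 4 samples). It was the 1 library found among 24 groups tested, where chance gives about 1 in 20. Krt10 in the same library (9.84 CPM) did not pass that test.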

How the results depend on the processing

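With 2 wild-type libraries, the intervals of low keratins are wide, and the sequence shared between family members limits Krt6a, Krt6b, Krt16 and Krt8. Over all genes edgeR without the block called 11, and 3 to 15 when each knockout library was left out. DESeq2 without the block called 262, and edgeR with the replicate block (experiment) called 217. The title numbers did not pair the libraries (r = 0.316 for wild type 1 with knockout 1, -0.286 for wild type 2 with knockout 2). With 2 wild-type libraries the second value only mirrors the 0.286 of wild type 1 with knockout 2, and is not separate evidence. A replicate block on the title numbers called 12 genes. Without the block 0 keratins were called under every alternative. With it, DESeq2 called 2 (Krt15, Krt80), and leaving out a library gave 0 to 3. Between experiments the count was 0 to 5 when each library was left out. Dividing counts by exon length gave keratin shares of 2.40% in wild type and 2.32% in knockout and type I to type II ratios of 4.50 and 4.98. Of the 23 keratins, 10 kept the sign of their log2 fold change in all 14 alternatives and 13 did not. Under the title-number block the sign turned for Krt32 (0.091), Krt16 (-0.15), Krt17 (0.0098) and Krt84 (0.067). Leaving out 1 library at a time gave -0.33 to 2.16 for Krt39, -0.46 to 0.19 for Krt32, -0.25 to 0.90 for Krt19, -0.23 to 0.12 for Krt9, -0.089 to 0.12 for Krt14, -0.44 to 0.74 for Krt16 and -0.13 to 0.0073 for Krt17. It gave -0.044 to 0.92 for Krt7, -0.32 to 0.23 for Krt84, -0.25 to 0.49 for Krt6a, -0.0072 to 3.59 for Krt4, -0.039 to 1.38 for Krt79 and -0.19 to 0.00071 for Krt8, and the cause was not tested.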
